A study of Mus musculus with 2 samples.

Results

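The genes described here encode myeloid immunoreceptors of the TREM, CD200R and CD300 groups, with DAP12, the adaptor that several of them share. They were chosen by name, with earlier results of these data known, as 10 genes. The 10 are Trem1, Trem2, Trem3, Treml2, Treml4, Tyrobp, which encodes DAP12, Cd200r1, Cd300a, Cd300lf and Cd300ld. Every probe for a gene whose RefSeq accession belongs to 1 of these 10 was used, which gave 13 probes of 39424 and 10 genes of 32448. The 32448 are 20656 RefSeq gene symbols and, for unmatched probes, the array's own accession or name, each counted as a gene. All values given for all genes rest on this mix. BMDMs, macrophages grown from bone marrow, came from male mice aged 8 weeks of the Crif1 f/f genotype, in which the Crif1 allele is floxed and no Cre driver is named for these cultures, so both conditions share it. Untreated BMDMs and BMDMs treated with IL-4 for 18 h were each read on 1 single-colour array, both on the same slide, and the IL-4 concentration is not given in the labels. With 1 array per condition there is no replicate check and no p-value is given.

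TREM-1 and TREM-2 are immunoglobulin-like proteins with short cytoplasmic tails that pair with DAP12, whose ITAM motif recruits the kinase Syk. TREM-2 binds lipids and lipoproteins, and TREM-1 amplifies inflammatory signals in neutrophils and monocytes. CD200R1 and CD300A are inhibitory: CD200R1 signals through the Dok adaptors after binding CD200, and CD300A carries ITIM motifs that recruit phosphatases. CD300f, encoded by Cd300lf, has inhibitory and activating motifs, while the protein of Cd300ld signals through the Fc receptor γ chain, encoded by Fcer1g.

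The intensity of a probe is background-subtracted by the scanner software. A log2 difference is IL-4-treated minus untreated after subtracting the 75th percentile of each array, and its error (±) is computed from the error the software gives for each spot. This error covers the spot and not the spread between cultures. Over 243 probes printed in 10 spots, the spread of the log2 difference from spot to spot was smaller, with a median SD of 0.066. A gene or probe is called detected where the software flagged its signal as well above background, which held for 59.8% of gene spots in untreated BMDMs and 57.4% after IL-4. Arg1, which encodes arginase and is a known IL-4 target, was 216-fold higher after IL-4. Of the 7 macrophage markers matched, all were detected on both arrays, Csf1r and Adgre1 among them, with log2 differences of 0.09 and 0.17. Cd14, Fcgr1 and Mertk were 2.68-fold, 2.34-fold and 2.20-fold lower, Itgam and Lyz2 had differences of -0.71 and -0.70, and the median of the 7 was -0.71. With spike-in scaling Fcgr1 and Mertk fell short of 2-fold, at -0.94 and -0.85, as did Mertk with median scaling, at -0.92.

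Of the 10 genes, 8 were detected on both arrays and 2, Trem3 and Treml2, on neither. Cd300a and Cd300ld were higher after IL-4 by at least 2-fold, and 0 of the 8 were lower by that much. Among all 19743 genes detected on at least 1 array, the share at least 2-fold higher was 2.86% and the share at least 2-fold lower was 4.47%. The log2 differences of the 8 genes ran from -0.43 to 1.38 with a median of -0.09, beside a median of -0.03 over all genes. Only the CD300 receptors Cd300a and Cd300ld and the receptor Cd200r1 had a difference above 0, and the 4 genes of the TREM group with DAP12 that were measured all lay below it with this scaling. The difference was smaller than its error for Trem2 and Cd300lf and larger for the other measured members. How many of all genes pass their error was not counted. Tyrobp passed its error, yet 23.7% of all genes with a difference lay as low or lower. These are RNA levels of whole cultures, in which fewer cells of a type and less RNA per cell cannot be told apart.

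**Figure D1:**
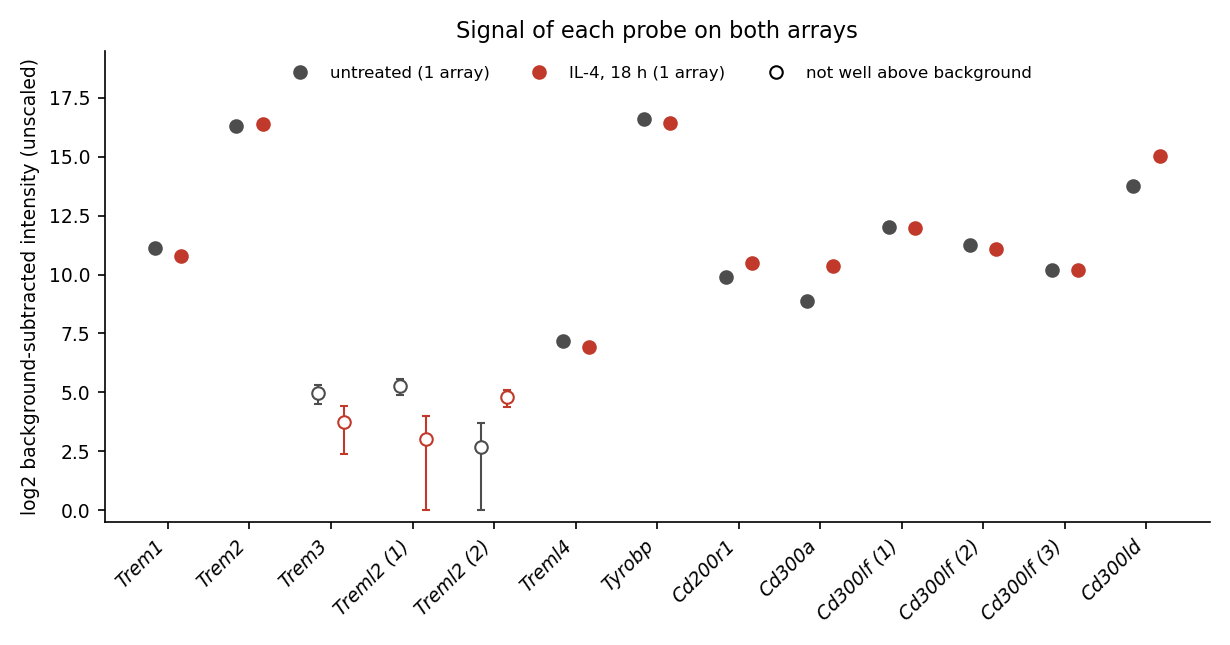
Background-subtracted intensity of each of the 13 probes on a log2 axis, before scaling between arrays, on the untreated array (grey) and the IL-4 array (red), with bars for the software error (cut at an intensity of 1). Open symbols are spots that were not detected; numbers in brackets mark the probes of a gene with several. The pairs for Cd300a and Cd300ld are separated upwards, and those for Trem2 and Cd300lf nearly coincide; heights of different probes are not comparable.

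Tyrobp encodes the adaptor itself. Its probe (NM_011662) had an intensity of 100670 in untreated BMDMs and 88558 after IL-4, with software errors of 10067 and 8856. The IL-4 signal was the lower, with a log2 difference of -0.28 ± 0.20, or 1.22-fold. Of all genes with a difference, 23.7% lay as low or lower. Of 9 other settings of scaling, background, flags or source of values, spike-in scaling turned the sign, to 0.0012. Keeping flagged spots and using the authors' processed values, both among the 9, could hardly move any gene described here. No spot of the probes of these genes was flagged, and the authors' differences matched those here apart from a constant.

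Trem2 (NM_031254) encodes the receptor for lipids and lipoproteins. Its intensity was 81969.6 in untreated BMDMs and 85807 after IL-4. The unscaled IL-4 signal was slightly the higher, and after scaling the log2 difference was -0.03 ± 0.20. Without scaling, with median scaling and with spike-in scaling the sign turned, up to 0.25. A difference larger than the error was therefore not seen for Trem2 with 75th percentile scaling.

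Trem1 (NM_021406), the inflammatory amplifier, had an intensity of 2216 in untreated BMDMs and 1765 after IL-4. It was the most reduced of the measured members, 1.35-fold lower, with a log2 difference of -0.43 ± 0.20, and 16.3% of all genes lay as low or lower. It stayed below 0 in all 9 other settings, between -0.48 and -0.14. Trem1 is also expressed by neutrophils, and 9 of 9 matched neutrophil markers were detected on both arrays. Their summed signal, in units of each array's 75th percentile, was 44.5 in untreated BMDMs and 39.3 after IL-4, and their median log2 difference was -0.54. The part of neutrophil RNA in the Trem1 difference was not tested.

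Treml4 encodes a TREM-like receptor that binds dying cells. Its probe (NM_001163795) was dim, with an intensity of 143 in untreated BMDMs and 120.1 after IL-4, where the lowest detected signals were 29.2 and 27.9. The IL-4 signal was 1.28-fold lower, a log2 difference of -0.35 ± 0.22. In the other settings it lay between -0.41 and -0.07, below 0 in each.

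Neither Trem3 nor Treml2 was detected, so no fold is given. The Trem3 probe (NM_021407) had intensities of 31.0 untreated and 13.3 after IL-4, with errors of 27.8% and 61.0%. The Treml2 probes (both NM_001033405) went opposite ways in this range: 1 had 38.5 untreated and 7.99 after IL-4, and the other 6.49 and 27.8. Errors of these Treml2 values reached 99.7% of the intensity. For comparison, the 153 negative control spots had a median pixel intensity of 57 on each array before background subtraction, with a 95th percentile of 71.7 and 72.7, and the Trem3 spot had 92 and 68. The Treml2 spots had 111 and 61.5 at the first probe and 62.5 and 99 at the second. The Trem3 spot and the first Treml2 spot thus lay above that percentile in untreated BMDMs, and the second Treml2 spot after IL-4, without being flagged as well above background.

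Cd200r1 encodes the receptor for CD200. Its probe (NM_021325) had an intensity of 957 in untreated BMDMs and 1457 after IL-4. The IL-4 signal was 1.42-fold higher, with a log2 difference of 0.51 ± 0.20, and 7.31% of all genes lay as high or higher. The difference was above 0 in all 9 other settings, between 0.45 and 0.79, and below 2-fold in each.

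Cd300a encodes the ITIM-bearing receptor for phospholipids on dying cells. Its probe (NM_170758) had an intensity of 467 in untreated BMDMs and 1307 after IL-4. This was the highest difference among the 10 genes, 2.61-fold, with a log2 difference of 1.38 ± 0.21, and 1.44% of all genes lay as high or higher. In the other settings it lay between 1.26 and 1.67, at least 2-fold higher in all 9. Keeping flagged spots and using the authors' processed values gave 1.38 each, and these settings could hardly differ from the main one.

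Cd300ld encodes an activating receptor of the same family. Its probe (NM_145437) had an intensity of 13655 in untreated BMDMs and 33364 after IL-4. The IL-4 signal was 2.28-fold higher, a log2 difference of 1.19 ± 0.20, so the error reaches the 2-fold limit, and 2.08% of all genes lay as high or higher. It was at least 2-fold higher in all 9 other settings, between 1.09 and 1.48.

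Cd300lf encodes CD300f, a receptor for phosphatidylserine and ceramide. Its 3 probes were all detected on both arrays. The brightest (NM_001169153) had an intensity of 4166 in untreated BMDMs and 4009 after IL-4. The second (NM_145634) had 2419 and 2149. The third, designed on the same accession as the brightest, had 1160.2 and 1159. The 3 probes lay close together, with log2 differences of -0.16, -0.27 and -0.10, each with an error of 0.20, and the brightest turned to 0.06 with median scaling and 0.13 with spike-in scaling. No difference larger than the error was seen at the brightest probe with 75th percentile scaling, while Cd300a and Cd300ld were higher by over 2-fold.

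**Figure D2:**
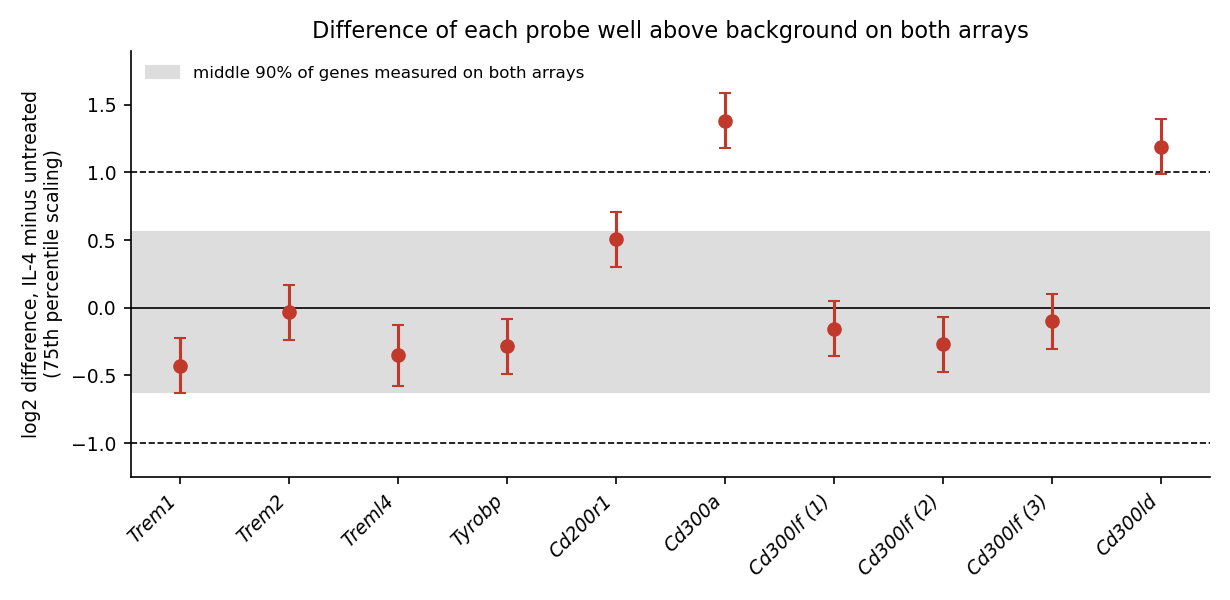
Log2 difference, IL-4 minus untreated with 75th percentile scaling, of the 10 probes detected on both arrays, with bars for the software error. The grey band runs from the 5th to the 95th percentile of genes detected on both arrays (-0.62 to 0.56) and dashed lines mark a 2-fold difference. Cd300a (1.38) and Cd300ld (1.19) lie above the band and the upper line, while every other probe lies within the band.

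The Cd300 genes lie side by side on mouse chromosome 11, in an order taken from the RefSeq table of GRCm38.p6. Of 11 Cd300 genes in this cluster 7 were matched to a probe, all detected on both arrays. Cd300a and Cd300lb stand first, and Cd300c, which was not matched here, lies between them and Cd300ld. Cd300lb, an activating receptor that pairs with DAP12, had an intensity of 1887 in untreated BMDMs and 4865 after IL-4, 2.41-fold higher. After Cd300ld come Cd300c2, with a log2 difference of 0.17 ± 0.20, and Cd300ld4, with 0.10 ± 0.22, which turned to -0.14 with normexp. Cd300e, another activating receptor, was 2.57-fold lower, with an intensity of 245 untreated and 102 after IL-4, a difference that shrank to -0.95 with normexp background correction. Cd300lf lies at the far end, beyond Rab37. The 3 genes that were at least 2-fold higher thus came from 1 end of the cluster, and this arrangement was seen after the values were known.

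The Trem genes form a cluster on chromosome 17, in which all 6 genes with a Trem or Treml name were matched and 4 had a difference. In gene order these were Trem1 at -0.43, Treml4 at -0.35, Trem2 at -0.03 and Treml1, the platelet receptor TLT-1, at -0.10, where Trem2 took the other sign in 3 of 9 settings and Treml1 in 2. None of the 4 reached 2-fold. B430306N03Rik, which lies in this cluster and was set apart from the Trem genes by its name alone, had a log2 difference of 0.72.

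**Figure D3:**
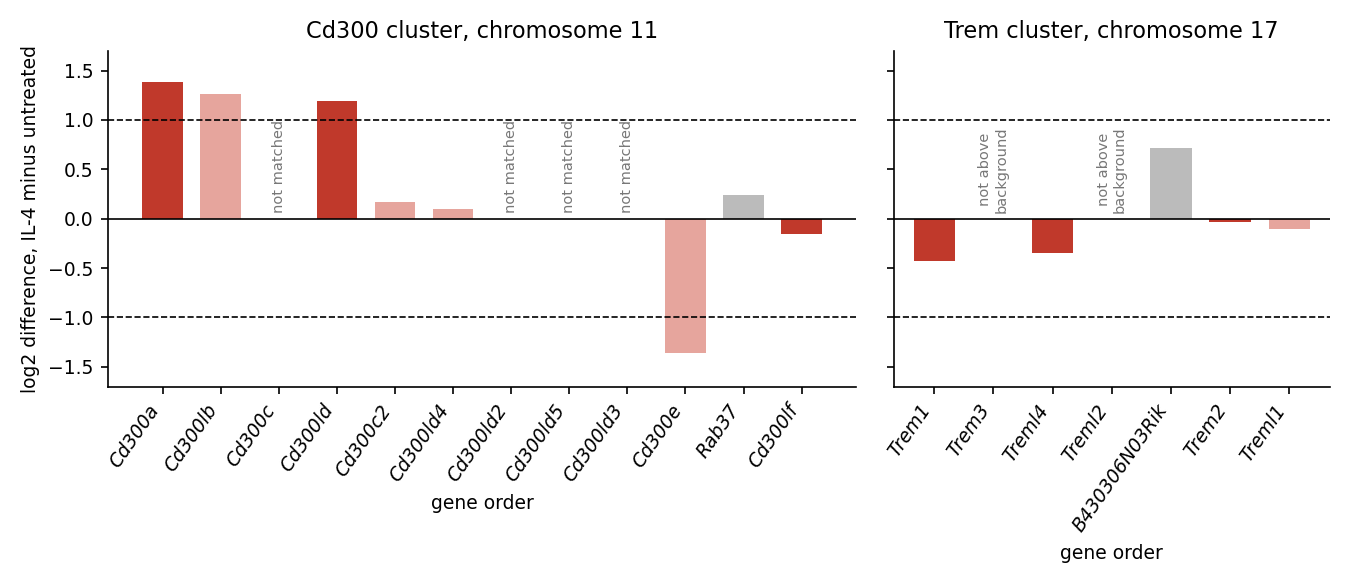
Log2 difference, IL-4 minus untreated, of the genes of the Cd300 and Trem clusters, in gene order along the chromosome. Dark red bars are the genes described here, light red bars other genes named for the families, and grey bars genes of other names. Genes not matched to a probe or not detected have no bar. Cd300a, Cd300lb and Cd300ld exceed 1 at 1 end of the Cd300 cluster, Cd300e lies at -1.36, and no family gene of the Trem cluster passes a dashed 2-fold line.

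Promoters of several Cd300 genes are shown because genes lying next to each other differed in the size of their difference. That of Cd300e, the Cd300 gene that was at least 2-fold lower, is described below and not printed. The 250 bases before the gene start were read from RefSeq (GRCm38.p6) for Cd300a (chr11:114889791-114890040, plus strand), Cd300ld (chr11:114989887-114990136, minus strand), its close relative Cd300ld4 (chr11:115026934-115027183, minus strand), Cd300lb (chr11:114934372-114934621, minus strand) and Cd300lf (chr11:115133993-115134242, minus strand). Each is written 5′ to 3′ on the strand of its gene, and capitals mark AGGAAG or its reverse complement, the core of sites bound by ETS factors such as PU.1.
Cd300a: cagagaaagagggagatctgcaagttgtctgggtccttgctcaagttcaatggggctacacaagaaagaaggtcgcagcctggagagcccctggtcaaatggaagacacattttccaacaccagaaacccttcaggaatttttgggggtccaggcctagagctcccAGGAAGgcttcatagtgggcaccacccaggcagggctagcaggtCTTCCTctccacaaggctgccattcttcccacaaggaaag
Cd300ld: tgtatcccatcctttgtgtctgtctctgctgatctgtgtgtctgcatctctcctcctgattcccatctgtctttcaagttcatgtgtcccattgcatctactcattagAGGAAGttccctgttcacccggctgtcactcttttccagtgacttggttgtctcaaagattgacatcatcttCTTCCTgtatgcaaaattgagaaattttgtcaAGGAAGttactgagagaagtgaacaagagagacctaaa
Cd300ld4: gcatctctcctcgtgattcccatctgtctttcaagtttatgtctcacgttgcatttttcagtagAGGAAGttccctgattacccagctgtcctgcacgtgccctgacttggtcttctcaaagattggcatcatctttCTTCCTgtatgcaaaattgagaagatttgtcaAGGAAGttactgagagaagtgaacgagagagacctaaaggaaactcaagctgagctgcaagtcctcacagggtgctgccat
Cd300lb: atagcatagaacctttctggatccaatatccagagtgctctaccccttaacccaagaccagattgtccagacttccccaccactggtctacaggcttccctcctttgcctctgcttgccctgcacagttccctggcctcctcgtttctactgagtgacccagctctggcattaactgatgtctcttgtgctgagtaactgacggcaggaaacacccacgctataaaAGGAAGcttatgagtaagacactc
Cd300lf: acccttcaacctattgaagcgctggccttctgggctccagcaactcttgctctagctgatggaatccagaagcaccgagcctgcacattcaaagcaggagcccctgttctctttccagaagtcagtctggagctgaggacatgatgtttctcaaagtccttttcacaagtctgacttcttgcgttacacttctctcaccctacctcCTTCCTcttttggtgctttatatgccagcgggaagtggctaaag

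Of the 10 genes 6 were matched to a promoter: Trem1, Trem2, Treml4, Cd300a, Cd300lf and Cd300ld. All 6 held AGGAAG on at least 1 strand, beside 29.5% of 32851 promoters. Over these 6 and the relatives matched to a promoter, 14 of 17 held AGGAAG, and Cd200r2, Cd200r4 and Treml1 did not. In Cd300a AGGAAG lay 84 and 40 bases before the start, in Cd300lf 44, in Trem2 41, in Treml4 23 and in Trem1 108. Cd300ld held it at 142, 70 and 38 bases, the first within the longer GAGGAAGT, found in 2.44% of all promoters. GAGGAAGT also lay 187 bases before the start in each of the relatives Cd300ld3, Cd300ld4 and Cd300ld5. Cd300e, which was 2.57-fold lower, held AGGAAG 160, 137 and 116 bases before the start. AGGAAG was thus present in genes that differed by over 2-fold in either direction and in genes that did not. The motif with the spacing that STAT6 favours has TTC and GAA on either side of 4 bases. Searched on both strands, it matched 0 of the 6, beside 5.85% of all promoters. Over the 17 promoters it was found in Cd200r4 alone, 11 bases before the start. TTCNNNGAA, the spacing of other STATs, was found in Trem1 alone of the 6, beside 7.02% of all promoters. Of the relatives, Cd300e held TTCNNNGAA too, 184 bases before the start. TGANTCA, the AP-1 motif, was found in Trem2 alone, beside 6.75% of all promoters. Cd300ld and Cd300ld4 were identical at 87.4% of 206 aligned bases and both held 3 copies of AGGAAG, while other pairs of Cd300 promoters, apart from pairs within the Cd300ld group, were identical at 56.9% to 68.1%. Their log2 differences were 1.19 and 0.10. Probe sequences were not used here, so hybridization of 1 probe to transcripts of such close relatives was not tested, and the values of Cd300ld and Cd300ld4 are uncertain for that reason.

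Of the CD200R relatives, Cd200r4 had a log2 difference of 0.02, whose sign turned in 2 of 9 settings. Cd200r3, a receptor of basophils and mast cells, was not detected on either array, and Cd200r2 was at least 3.08-fold lower, from an intensity of 80.2 in untreated BMDMs to a signal that was not detected. Normexp background correction reduced the Cd200r2 difference to -0.95. Cd300lg, which lies elsewhere, had a difference of 0.12. In all, of 8 such relatives detected on at least 1 array, Cd300lb was at least 2-fold higher and 2, Cd300e and Cd200r2, at least 2-fold lower, with a median log2 difference of 0.06.

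Signalling genes downstream of these receptors were read from lists of ITAM and inhibitory pathway genes. Of 18 ITAM signalling genes, all detected on both arrays, 2 were at least 2-fold higher and 0 lower, with a median log2 difference of 0.10. Those were the Src family kinases Fyn, 3.20-fold, and Fgr, 3.12-fold. Syk, which binds the ITAM of DAP12, had -0.13 ± 0.20, and Fcer1g and Hcst, the other adaptors, had -0.18 and 0.07, both with an error of 0.20. Of 9 inhibitory signalling genes, all detected, 1 was at least 2-fold higher and 0 lower, with a median of 0.29. This was Dok2, the adaptor recruited by CD200R1, with an intensity of 10319 in untreated BMDMs and 29229 after IL-4, 2.64-fold higher and at least 2-fold in all 9 other settings. Dok1 was 1.42-fold higher, and the phosphatase genes Ptpn6, Ptpn11 and Inpp5d, which encode SHP-1, SHP-2 and SHIP-1, had log2 differences of -0.03, 0.08 and -0.47.

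Ligands, a coreceptor and sheddases formed a further list, in which 10 of 11 genes were detected, 1 was at least 2-fold higher and 0 lower, with a median log2 difference of -0.04. Sema6d, a ligand of the plexin that associates with TREM-2, was 2.79-fold higher at its brighter probe, and its other probe was not detected. The plexin gene of the list, Plxna1, was 1.42-fold lower, with a log2 difference of -0.51 ± 0.20. Cd200, the ligand of CD200R1, was 1.59-fold lower, with a log2 difference of -0.67 ± 0.20, while its receptor was 1.42-fold higher. Pglyrp1, a ligand of TREM-1, was 1.64-fold lower (-0.71 ± 0.27), and Apoe, a ligand of TREM-2, had -0.09 ± 0.20.

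Of 5 receptors detected on a list of others that pair with DAP12, 3 were at least 2-fold lower, beside 4.47% of all genes. Their median was -1.001 on the log2 scale. Siglech, the brightest of the 5, had a log2 difference of 0.02 ± 0.20, and Pilrb1 was 1.82-fold lower (-0.86 ± 0.25). Cd300lb, which also pairs with DAP12 but is not on this list, was 2.41-fold higher. Sirpb1b and Sirpb1a, encoding signal-regulatory proteins, were 2.22-fold and 2.10-fold lower, each at 2 probes with differences between -1.15 and -1.07, though these are close relatives that a probe may not tell apart. Pilrb2 was lower by just over 2-fold at its brighter probe. All 3 fell short of 2-fold with median and spike-in scaling, Sirpb1b at -0.94 and -0.86, Sirpb1a at -0.85 and -0.78 and Pilrb2 at -0.79 and -0.71. Sirpb1a also fell short without scaling, at -0.97, and Pilrb2 without scaling and with cyclic loess, at -0.90 each, with quantile normalization, at -0.94, and with normexp, at -0.75. DAP12 itself was 1.22-fold lower on the same arrays.

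**Figure D4:**
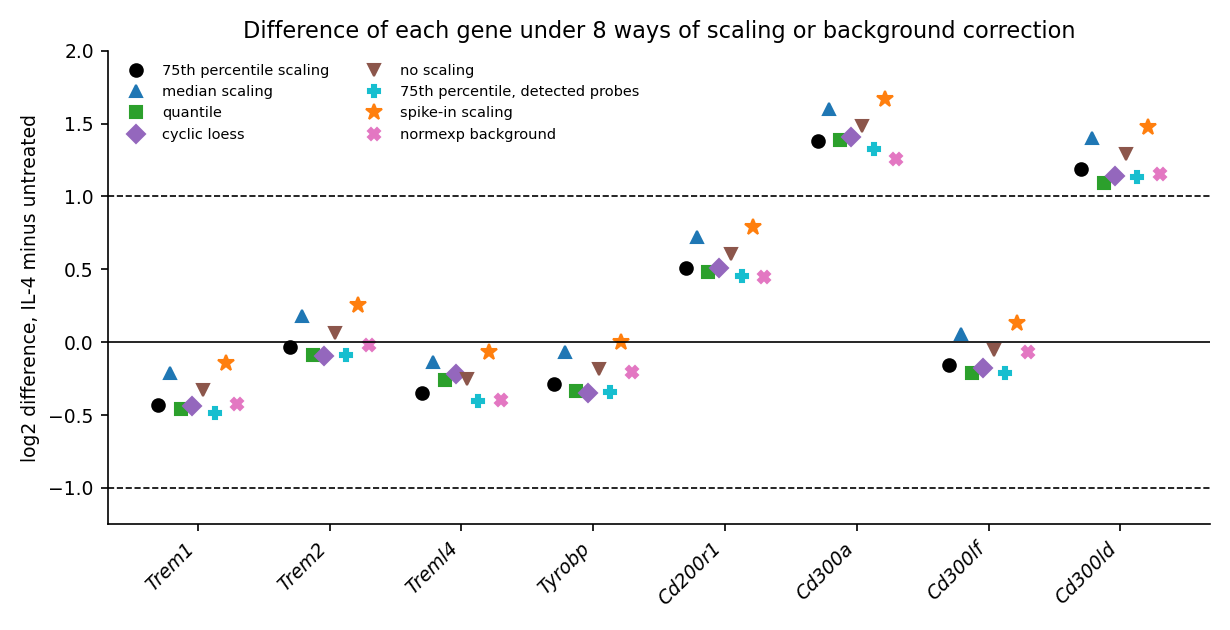
Log2 difference, IL-4 minus untreated, of the 8 genes detected on both arrays, under 8 ways of scaling or background correction (symbols). Dashed lines mark a 2-fold difference. Cd300a and Cd300ld lie above the upper line in each, Cd200r1 stays between 0.45 and 0.79, and Trem2, Tyrobp and Cd300lf change sign with spike-in scaling.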

How the data were processed

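RNA of untreated and IL-4-treated BMDMs (500 ng each) was labelled with Cy3 and hybridized to 1 array per condition, and groups follow the sample labels. Per the file headers, the deposited intensity of a spot was background-subtracted and detrended by Agilent Feature Extraction 10.10.1.1 without scaling between arrays. A second deposited table holds log2 values, with column medians of 0.161 and 0.016, made by a tool and centring not given in the sources used here. Its differences between arrays matched those of the 75th percentile scaling here for all 13 probes, within 0.01 after the constant that scaling adds.

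Spots flagged as outliers were left out, spots of the same probe were averaged after log2, and each array was shifted by its 75th percentile (9.84 untreated, 9.94 IL-4). Gene names came from a RefSeq table (GRCm38.p6) by accession, the design being annotated on mm9; 27229 of 39424 probes matched. A gene was read from its brightest probe. For a probe well above background on 1 array, the difference is a bound against the other array's lowest signal flagged as such, or the probe's own signal there if higher. No test was run, since the precision is limited by the number of arrays. The named genes are the 10 members and all relatives matched in the TREM, CD200R and CD300 list. Genes of the other lists are named where at least 2-fold changed. Further genes were named after their values were seen. These were Syk, Fcer1g, Hcst, Dok1, Ptpn6, Ptpn11, Inpp5d, Cd200, Pglyrp1, Apoe, Plxna1, Siglech, Pilrb1, Csf1r, Adgre1, Itgam and Lyz2. In the last part they were Cd72, Cd33, Pilra, Sirpa and the undetected Mcpt4, Fcer1a and Ms4a2. Arg1 and B430306N03Rik, from outside the lists, were also named after their values were seen. The members and lists were chosen with earlier results of these data known. Counts of changed genes were checked on simulated data, with changes planted well past the 2-fold limit in detected probes. This checks the counting steps, and not calls near the limit or the spread between cultures. Promoters were aligned globally. Python 3.11.15, numpy 2.4.6, pandas 2.3.3, Biopython 1.88, R 4.3.3 and limma 3.58.1 were used.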

Additional observations from a re-analysis of the deposited data

How the results depend on the processing

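No paired analysis was possible because only 1 array was made of each condition. Alternatives were median, quantile, cyclic loess, spike-in and no scaling, the 75th percentile over probes detected on both arrays, normexp with an offset of 50, flagged spots kept, the authors' processed values, the median over the probes of a gene, other filters on dim probes and other fold limits. The count of 2 genes at least 2-fold higher was the same in all of them except a 4-fold limit, where it was 0. The count of 0 genes at least 2-fold lower became 2 with no filter on dim probes, from Trem3 and Treml2. The median log2 difference of the 8 genes, -0.09, moved to 0.12 with median scaling and 0.19 with spike-in scaling, settings that raise the median of all genes measured on both arrays from -0.01 to 0.20 and 0.27. Genes at least 2-fold higher made up 39.0% of all genes changed by that much, against 59.5% with median, 60.1% with quantile and 65.8% with spike-in scaling. Of the 8 genes, Trem2, Tyrobp and Cd300lf took the other sign in 3, 1 and 2 of 9 settings, and Trem1, Treml4, Cd200r1, Cd300a and Cd300ld in 0. For these 8 genes, keeping flagged spots and using the authors' processed values are not separate checks. No spot of their probes was flagged, and the authors' differences matched those here apart from a constant.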

Other observations

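Other receptors of myeloid cells, mostly inhibitory ones, were read from a separate list of 15 genes, of which 13 were detected on at least 1 array. After IL-4, 3 of these passed 2-fold upwards and 0 downwards, with a median log2 difference of 0.09. Fcgr2b, the inhibitory Fc receptor, had an intensity of 4093 in untreated BMDMs and 17369 after IL-4, 3.96-fold higher. Lair1, a receptor for collagen, was 2.79-fold higher, with log2 differences of 1.48 and 1.55 at its 2 probes. Clec4a2, a C-type lectin receptor, was detected after IL-4 alone and was at least 2.80-fold higher there, a bound that shrank to a log2 difference of 0.52 with normexp background correction. Cd72 was 1.68-fold higher. Cd33 was 1.84-fold lower, and the 3 probes of Pilra had log2 differences of -0.80, -1.26 and -1.06, of which the first, from the brightest probe, stands for the gene in the count. Sirpa, the receptor for CD47, had a difference of 0.09 ± 0.20.

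Markers of other cell types were read on both arrays. Of 8 mast cell and basophil markers 3, Mcpt4, Fcer1a and Ms4a2, were not detected, and Cpa3 was at least 3.51-fold lower after IL-4, from an intensity of 91.2. The other 4 lay within 2-fold, the highest at a log2 difference of 0.35, and the median of those detected was -0.24. Of 7 eosinophil markers 3 were not detected, of 6 dendritic cell markers 4, and of 8 lymphocyte markers 5, and 0 markers of these 3 lists were at least 2-fold changed. The summed scaled signal, over markers detected on both arrays, was 0.607 untreated and 0.507 after IL-4 for mast cell and basophil markers. It was 1.04 and 1.08 for eosinophil markers, 0.0961 and 0.0775 for dendritic cell markers, and 0.933 and 0.860 for lymphocyte markers. Each sum is in units of each array's 75th percentile. Markers detected in untreated BMDMs alone, Cpa3 among them, are left out of the sums.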
